A study of Mus musculus with 6 samples.

Results

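Heat shock chaperones and their transcriptional activator were examined in sorted mouse leukaemic blasts with and without a Stat3β transgene. The 10 genes were taken by name: 5 stress-inducible chaperone genes (Hspa1a, Hspa1b, Dnajb1, Hsph1 and Hsp90aa1), 4 constitutively expressed ones (Hspa8, Hsp90ab1 and the mitochondrial pair Hspd1 and Hspe1) and Hsf1. All 10 were found among the 24454 gene IDs of the table and all 10 were among the 12642 genes that passed the filter on low values. The Stat3β TG group held 3 libraries of blasts grown from C57BL/6 fetal liver cells with Mx1-Cre recombinase and a Stat3β transgene, and the WT group held 3 libraries from wild-type littermates. Both carried a retroviral MLL-AF9 oncogene, were grown in immunodeficient NSG mice, whose own lymphoid cells are largely missing, and both sets of recipients received 100 µL of poly(I:C) at 2 mg/mL in week 4 and were killed in week 6. Poly(I:C) evokes interferon, which switches on the Mx1 promoter and so the recombinase. The blasts were sorted from bone marrow by the Venus reporter, and whether the libraries of a group had separate donors is not in the labels. A p thus covers only the spread between these samples. That spread may be technical in Stat3β TG, while in WT it also holds a difference in sex-linked genes, given below.

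Heat shock proteins bind unfolded or unstable proteins and keep them from aggregating. HSP70 proteins hold short stretches of a client with the help of J-domain partners, which deliver clients, and of exchange factors such as HSP110, which release them, and HSP90 takes over clients such as kinases and transcription factors, STAT3 among them. In stressed cells HSF1 forms trimers and binds heat shock elements, repeats of the unit GAA and its complement TTC, and the inducible genes are transcribed within minutes, while their constitutive relatives keep a high basal level.

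The Hspa1a and Hspa1b promoters and the shared Hspd1 and Hspe1 promoter are shown because the largest difference concerned the first pair and because the other pair is divergently transcribed. Sequences are from RefSeq (GRCm38.p6), and promoter windows were matched for 6 of the 10 genes, Hspa1a, Hspa1b, Dnajb1, Hsph1, Hspd1 and Hspe1; Hsp90aa1, Hspa8, Hsp90ab1 and Hsf1 were not matched. Capitals mark matches to a heat shock element of 2 alternating units (GAANNTTC or TTCNNGAA, each its own reverse complement). The stretches are the 200 bases before the annotated start of Hspa1a (chr17:34972157-34972356, minus strand), the same for Hspa1b (chr17:34959239-34959438, minus strand), and the 215 bases between the Hspe1 start and the annotated Hspd1 start that lies outside Hspe1 (chr1:55087933-55088147, plus strand).
Hspa1a: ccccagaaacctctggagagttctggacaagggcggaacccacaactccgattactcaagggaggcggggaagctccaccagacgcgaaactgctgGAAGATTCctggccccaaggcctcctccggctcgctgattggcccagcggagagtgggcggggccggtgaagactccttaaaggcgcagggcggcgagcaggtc
Hspa1b: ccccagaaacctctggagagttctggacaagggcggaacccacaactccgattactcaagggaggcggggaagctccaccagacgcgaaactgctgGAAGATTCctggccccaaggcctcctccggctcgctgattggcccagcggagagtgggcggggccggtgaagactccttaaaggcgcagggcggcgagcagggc
Hspd1 and Hspe1: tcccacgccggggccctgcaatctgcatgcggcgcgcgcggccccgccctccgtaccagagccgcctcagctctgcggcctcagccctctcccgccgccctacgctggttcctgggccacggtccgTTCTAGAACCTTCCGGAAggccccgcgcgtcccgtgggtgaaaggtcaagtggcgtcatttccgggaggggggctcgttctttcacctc
The Hspa1a and Hspa1b stretches differed at 1 of 200 bases, and their whole windows of 300 bases at 4. Hspa1a and Hspa1b each held 1 match of 2 units, from base -104 to base -97 before the start. The Hspd1 and Hspe1 stretch held a run of 18 bases that also contained 2 matches to the longer element of 3 units, in which a 2-unit match is followed after any 2 bases by 1 more alternating unit, so that it overlaps 2-unit matches. Of the 2 Hspd1 windows only that at this start held the run, and the other, whose start lies inside Hspe1, held 0 matches of either form. Both Hsph1 windows held 1 match of 3 units, after the annotated start, at bases 36 to 48 in window 1 and 15 to 27 in window 2. The Dnajb1 windows held no match to either form. Only exact units were searched, so elements with an altered unit or outside the windows were missed. Among all 32851 promoter windows of that length 15.1% held a 2-unit match and 0.603% a 3-unit match. A match is a description of the letters, not evidence of binding.

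**Figure D1:**
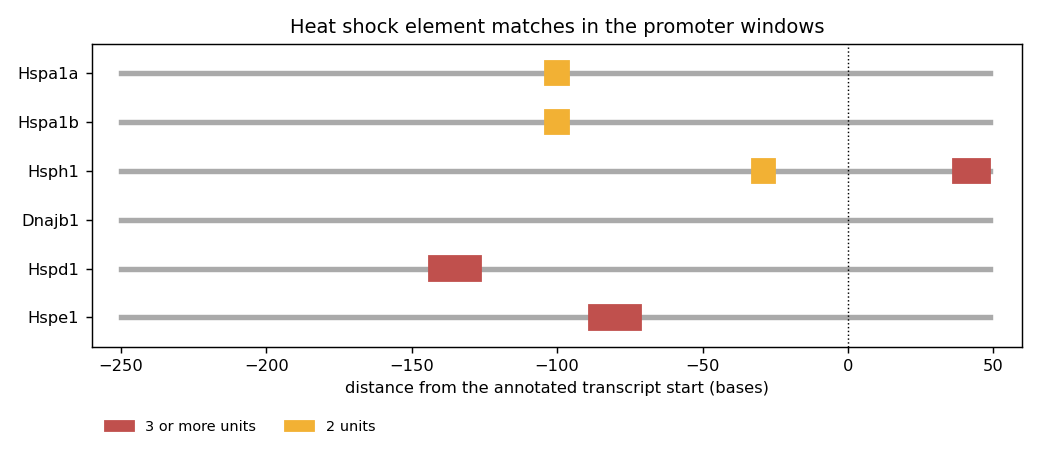
Position of heat shock element matches in the promoter windows of 6 heat shock genes, in bases from the annotated transcript start (1 window of 300 bases per gene). Hspa1a and Hspa1b have 1 match of 2 units at the same position, Hspe1 and the Hspd1 window drawn share 1 run of 18 bases read from opposite sides (the other Hspd1 window has 0 matches), Hsph1 has 1 match of 2 units and 1 of 3 units, and Dnajb1 has none.

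Between 21809788 and 51934498 reads were recovered per library. WT 1 lay on the leading principal component (47.4% of the variance) with the Stat3β TG libraries, apart from WT 2 and WT 3. WT 1 and WT 3 also differed from the other 4 libraries in sex-linked genes, as 4 Y-linked genes summed to between 8781 and 9465 normalized counts in Stat3β TG, against 58.8, 11012 and 71.8 in WT 1 to 3. The X-linked gene Xist had 42699.5, 835.2 and 45196.4 normalized counts in WT 1 to 3. The WT libraries thus came from cells of both sexes, so the WT spread is not technical alone. The part of this split in the results was not tested. All 12 myeloid blast markers passed the filter on low values, summing to between 144678 and 196147 normalized counts in Stat3β TG and to between 114075 and 176128 in WT. Of these markers 7 had a higher and 5 a lower mean log2 level in Stat3β TG. Only Cd34 had an unadjusted limma p under 0.05 (0.0475, adjusted p = 0.668), where 6.1% of all genes did. Cd34 averaged 5594 ± 2226 in Stat3β TG and 8127 ± 143 in WT (SD, n = 3 each), with overlap. Normalized counts are read counts divided by 1 scaling factor per library.

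The members of the family did not move as one between Stat3β TG and WT blasts. Hspa1a and Hspa1b, the stress-inducible HSP70 genes, had the largest differences, with lower levels in every Stat3β TG library than in any WT library, while Hspa8, their constitutive relative, had nearly equal means. Of the 10 genes 8 had a lower mean log2 level in Stat3β TG and 2, Hsph1 and Hsf1, a higher one, and the median log2 fold change was -0.28, against 0.01 over all genes tested. No gene passed the test over the whole table. The adjusted limma p was under 0.05 for 0 of the 10 genes and for 0% of all genes tested. edgeR also called 0 of the 10 and 0% of all genes, and DESeq2 called 0 of the 10 and 0.134% of all genes. The unadjusted limma p was under 0.05 for 3 members (Hspa1a, Hspa1b and Hsp90aa1, each lower in Stat3β TG), where 2.54% of all genes were lower at that level, 3.56% were higher and 6.1% differed in either direction. By edgeR 3 members and by DESeq2 4 members had an unadjusted p under 0.05, against 6.17% and 7.67% of all genes. The groups did not overlap for 5 members, 4 lower and 1 higher in Stat3β TG, and for 10.8% of all genes tested, 4.92% lower and 5.87% higher. Since 2 of the 4 lower ones, Hspa1a and Hspa1b, share most of their sequence, they do not count as separate observations.

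**Figure D2:**
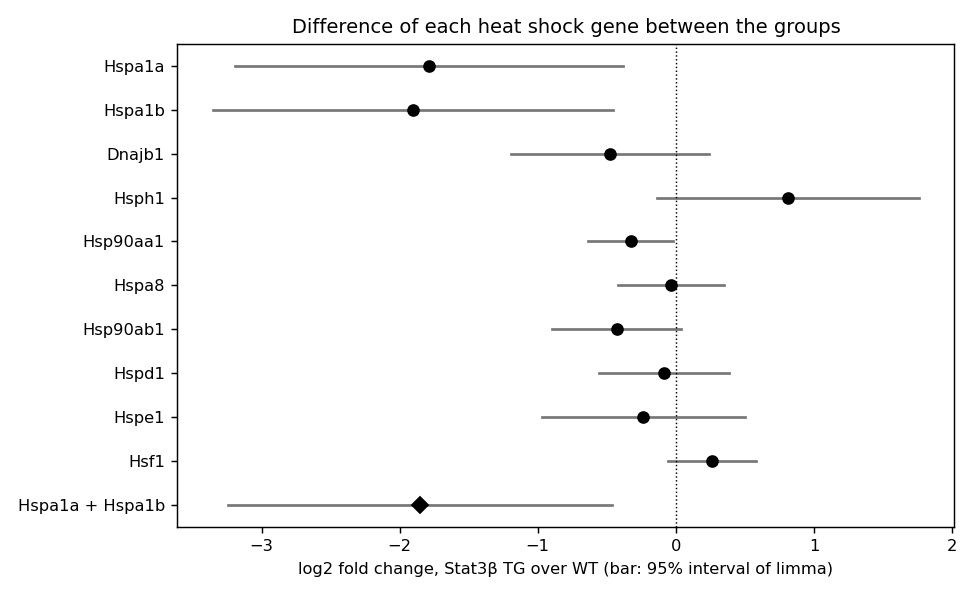
Difference in mean log2 level, Stat3β TG minus WT, for the 10 heat shock genes and for the sum of Hspa1a and Hspa1b (diamond), with the 95% interval of limma (n = 3 libraries per group). The Hspa1a and Hspa1b points lie at -1.79 and -1.90, and no other member lies beyond 0.81 on either side of 0.

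Hspa1a (Entrez 193740, chromosome 17, 34969359 to 34972156, minus strand, GRCm38) encodes an HSP70 that is scarce in unstressed cells. It had 583, 863 and 1229 normalized counts in Stat3β TG 1 to 3, against 8438, 1798 and 1675 in WT 1 to 3. Every Stat3β TG library lay below every WT library, and WT 1 stood 4.69 times above the next WT library. The log2 fold change was -1.79 with a standard error of 0.61 and a 95% interval of -3.19 to -0.38, 3.45-fold higher in WT (limma unadjusted p = 0.0191, adjusted p = 0.668). Hspa1b (Entrez 15511, chromosome 17, 34956429 to 34959238, minus strand), which encodes a nearly identical protein 10120 bases away, followed the same order of groups. It had 792, 875 and 1023 normalized counts in Stat3β TG, against 10324, 1459 and 2474 in WT. The log2 fold change was -1.90 with a standard error of 0.62 and an interval of -3.35 to -0.46 (limma unadjusted p = 0.0165, adjusted p = 0.668). In these bulk samples fewer cells of a kind and less RNA per cell cannot be told apart.

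The pair shares sequence: 60.3% of the 50-base windows of the longest Hspa1a transcript and 62.3% of those of Hspa1b occur in transcripts of other genes in GENCODE M21, mostly in each other (58.8% of Hspa1a and 62.3% of Hspa1b windows). A read wholly within such a stretch cannot be assigned to either copy by its own sequence. How such reads were counted is not given in the sources used here, so the sum is the safer value. Together the copies had 1375, 1739 and 2251 normalized counts in Stat3β TG, against 18762, 3257 and 4148 in WT. The groups again did not overlap, with a log2 fold change of -1.85 and an interval of -3.24 to -0.46 (limma adjusted p = 0.668). WT 1 sets much of the size and of the spread. Without WT 1 the log2 fold change of the sum was -1.07, with a limma unadjusted p of 0.00213 and an adjusted p of 0.0554, in a fit in which 27% of all genes had an unadjusted p under 0.05 and 2.74% an adjusted p under 0.05. Without WT 2, where limma called 0.0396% of all genes, it was -2.33, and without WT 3 it was -2.16. Against WT 1 alone Hspa1b passed the limma test (log2 fold change -3.53, adjusted p = 0.0043), as did 0.0712% of all genes, with 1 WT library assumed to vary like the Stat3β TG libraries. WT 2 against the 3 Stat3β TG libraries, the libraries with Y-linked reads, gave -1.08 for Hspa1a and -0.71 for Hspa1b (limma adjusted p = 0.170 and 0.108), in a fit that called 5.85% of all genes, again with 1 WT library. The 546-base interval beyond Hspa1a separates it from Hspa1l, a relative expressed mainly in testis, named here after its values were seen. Hspa1l had 125, 208 and 198 normalized counts in Stat3β TG, against 233, 326 and 331 in WT, also without overlap (limma adjusted p = 0.668).

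**Figure D3:**
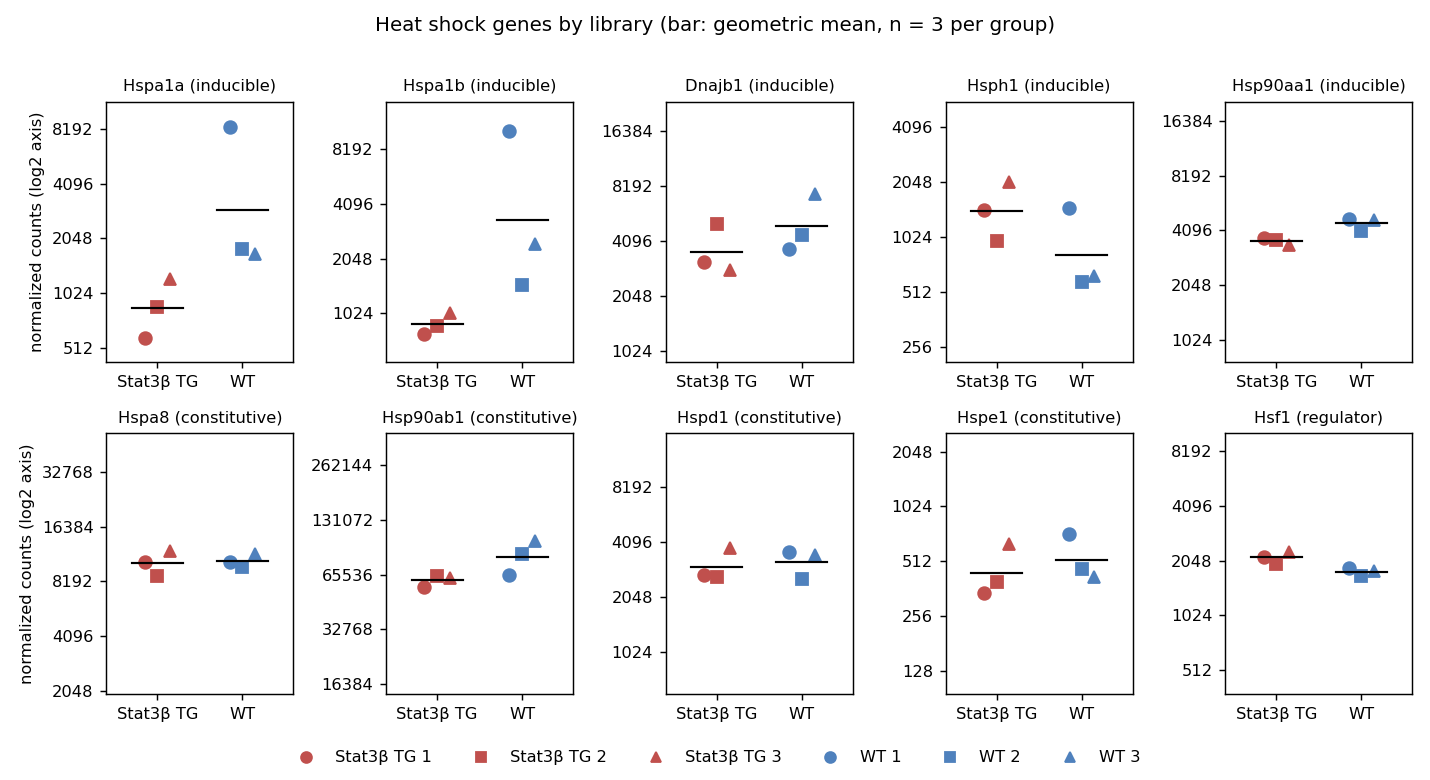
Normalized counts of the 10 heat shock genes in each library, on log2 axes, with Stat3β TG left of WT and a bar at the geometric mean of 3 libraries. Hspa1a and Hspa1b reach 8438 and 10324 in WT 1, far above the other 5 libraries, while Hspa8 and Hspd1 overlap between the groups.

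Of the other inducible genes, Hsp90aa1 had the same order of groups at a smaller size, while Dnajb1 and Hsph1 overlapped between the groups. Dnajb1, the J-domain partner that stimulates the HSP70 ATPase, had 3138, 5054 and 2833 normalized counts in Stat3β TG, against 3683, 4444 and 7417 in WT. Stat3β TG 2 lay within the WT range, and the log2 fold change was -0.48 with an interval of -1.19 to 0.24 (limma adjusted p = 0.675). Hsph1, the HSP110 exchange factor that releases clients from HSP70, went the other way in its means. It had 1448, 975 and 2053 normalized counts in Stat3β TG, against 1486, 578 and 625 in WT. WT 1 lay within the Stat3β TG range, and the log2 fold change was 0.81 with an interval of -0.14 to 1.76 (limma adjusted p = 0.668). Against WT 1 alone, without WT 2 and WT 3, the Hsph1 difference was -0.059. Hsp90aa1, the inducible cytosolic HSP90, had 3726, 3603 and 3387 normalized counts in Stat3β TG, against 4731, 4068 and 4676 in WT. These groups did not overlap, but the difference was small, with a log2 fold change of -0.33 and an interval of -0.64 to -0.02 (limma unadjusted p = 0.0402, adjusted p = 0.668). Of the Hsp90aa1 windows 58.5% occur in other transcripts, most in Gm12346, so its value is uncertain.

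Of the constitutive cytosolic genes, Hspa8 was level between the groups and Hsp90ab1 was lower in every Stat3β TG library. Hspa8, the HSC70 of unstressed cells, had 10475, 8721 and 12048 normalized counts in Stat3β TG, against 10467, 9789 and 11561 in WT. The ranges overlap, and the interval of its log2 fold change ran from -0.42 to 0.35 (limma adjusted p = 0.944). Hspa8 shares 73.2% of its windows with other transcripts, 70% with Gm15459 alone, so its value is uncertain as well. Hsp90ab1, the constitutive HSP90, had 56336, 64442 and 62381 normalized counts in Stat3β TG, against 64933, 84501 and 100579 in WT. The groups did not overlap, but WT 1 exceeded Stat3β TG 2, the highest of its group, by a factor of only 1.01. The log2 fold change of Hsp90ab1 was -0.43 with an interval of -0.90 to 0.04 (limma unadjusted p = 0.0673, adjusted p = 0.668). It was -0.09 against WT 1 alone and -0.60 without WT 1. Hsp90ab1 shares 4.49% of its windows with other transcripts.

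Per kilobase of merged exon, Hsp90ab1 was the most abundant of the 10 genes in both groups, with a mean level of 20358 normalized counts per kilobase in Stat3β TG and 27789 in WT, and Hspa8 came next with 2421 in Stat3β TG and 2466 in WT. Hspa1a had a mean level of 300.5 per kilobase in Stat3β TG and 1338 in WT, and Hspa1b of 319.9 in Stat3β TG and 1695 in WT. In Stat3β TG the inducible HSP70 genes thus lay far below Hspa8 on this scale, and the WT means include the high WT 1. This scale does not correct for windows shared with other transcripts, whose share differs between these genes. The 10 genes together took between 0.262% and 0.314% of all normalized counts in Stat3β TG, against between 0.377% and 0.438% in WT, most of it from Hsp90ab1. Ratios within a library do not depend on the scaling factor, and only the first of the ratios below separated the groups. The counts of Hspa1a plus Hspa1b, uncorrected for length and so compared only between libraries, were 13.1%, 19.9% and 18.7% of the Hspa8 count in Stat3β TG 1 to 3, against 179%, 33.3% and 35.9% in WT 1 to 3. Hsp90aa1 as a share of Hsp90ab1 was 6.61%, 5.59% and 5.43% in Stat3β TG, against 7.29%, 4.81% and 4.65% in WT, so the Stat3β TG libraries lay between WT 1 and the other WT libraries.

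The mitochondrial chaperonin genes overlapped between the groups. Hspd1 (chromosome 1, 55077833 to 55088243, minus strand) encodes HSP60, the ring that folds proteins imported into mitochondria, and Hspe1 (chromosome 1, 55088148 to 55091317, plus strand) encodes HSP10, its lid. Hspd1 had 2715, 2631 and 3789 normalized counts in Stat3β TG, against 3602, 2565 and 3498 in WT. Its log2 fold change was -0.09 with an interval of -0.56 to 0.39 (limma adjusted p = 0.888). Hspe1 had 341, 395 and 633 normalized counts in Stat3β TG, against 722, 462 and 418 in WT. Its log2 fold change was -0.24 with an interval of -0.97 to 0.50 (limma adjusted p = 0.804). Stat3β TG 3 was the highest Stat3β TG library for both genes and WT 1 the highest WT library. The Hspe1 count as a share of the Hspd1 count ranged over libraries from 12.5% to 16.7% in Stat3β TG and from 11.9% to 20.0% in WT. Both have processed copies: 44.8% of the Hspd1 windows and 36.1% of the Hspe1 windows occur in other transcripts.

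Hsf1 (chromosome 15, 76477362 to 76501155, plus strand), the transcription factor that activates the inducible genes, was slightly higher in every Stat3β TG library. It had 2147, 1964 and 2290 normalized counts in Stat3β TG, against 1855, 1695 and 1790 in WT. The groups did not overlap, with a log2 fold change of 0.26, an interval of -0.06 to 0.58 and a limma unadjusted p of 0.0975 (adjusted p = 0.668). Its sign was thus opposite to that of the inducible genes Hspa1a, Hspa1b, Dnajb1 and Hsp90aa1, and the same as that of Hsph1. A transcript level does not measure the active, trimeric form of the protein. No Hsf1 window occurs in another gene's transcript.

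Inducible and constitutive genes were set against each other as the mean log2(normalized count + 1) of each class in each library, as a description with no test. The 5 inducible genes averaged 10.56, 10.72 and 10.89 in Stat3β TG 1 to 3, against 12.19, 10.92 and 11.26 in WT 1 to 3. The 4 constitutive genes averaged 12.24, 12.26 and 12.67 in Stat3β TG, against 12.66, 12.45 and 12.65 in WT. The inducible class minus the constitutive class was -1.67 ± 0.12 in Stat3β TG and -1.13 ± 0.57 in WT (SD, n = 3 each), a difference of -0.54. With Hspa1a and Hspa1b summed as 1 gene, so that the pair counts once, the difference was -0.27. The libraries ran from -1.78 to -1.55 in Stat3β TG and from -1.53 to -0.47 in WT, so the classes stood further apart in every Stat3β TG library, by a narrow margin against WT 2. Without Hspa1a and Hspa1b the remaining inducible genes Dnajb1, Hsph1 and Hsp90aa1 averaged 11.36 ± 0.04 in Stat3β TG and 11.36 ± 0.23 in WT (SD, n = 3 each), and the class difference was 0.20, with its sign turned. Without WT 1 the 5-gene difference was -0.21, and with WT 2 as the only WT library it was -0.14.

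**Figure D4:**
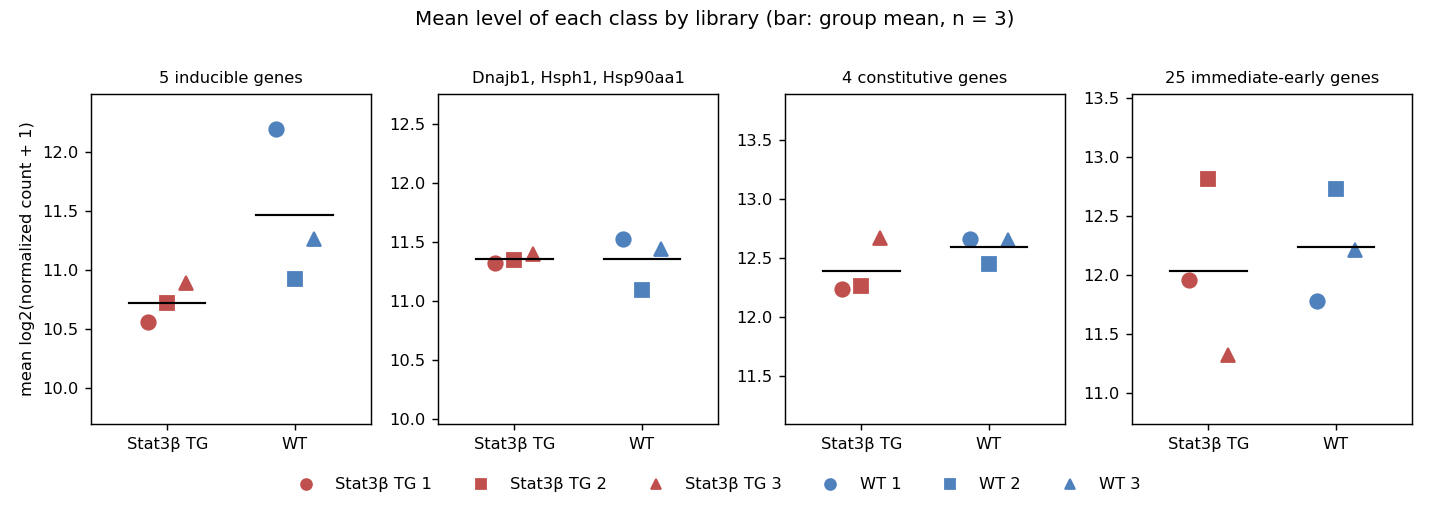
Mean log2(normalized count + 1) per library of the 5 inducible genes, of the inducible genes without Hspa1a and Hspa1b, of the 4 constitutive genes and of 25 immediate-early genes, with Stat3β TG left of WT and a bar at the mean of 3 libraries. WT 1 is highest at 12.19 for the inducible genes, and the group means coincide at 11.36 once Hspa1a and Hspa1b are left out.

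Among the members, levels of Hspa1a and Hspa1b varied together over the 6 libraries, with a Pearson correlation of log2 levels of 0.97, as a description of copies that share sequence. Dnajb1 followed Hsp90ab1 (0.83) and ran against Hsph1 (-0.83), while Hspa1a had low correlations with Dnajb1 (0.06) and Hsph1 (0.01). Hsf1 followed Hsph1 (0.86) and ran against Hsp90ab1 (-0.75), Hsp90aa1 (-0.74) and Dnajb1 (-0.70). The pair also varied with other members: Hspa1a had correlations of 0.79 with Hspe1 and 0.73 with Hsp90aa1, and Hspa1b of 0.67 with Hspe1 and 0.84 with Hsp90aa1. All these points share the same 6 libraries and their scaling. The 8 genes outside all lists whose levels were most like the mean of the inducible genes, out of 10797 with a mean of at least 50 normalized counts, were Ccdc102a, Cox18, Ttk, Nudt3, Hdac6, Cdca8, Magee1 and Ncaph, with correlations of 0.93 to 0.97 over the 6 libraries. Ttk encodes a kinase of the spindle checkpoint, Hdac6 a cytoplasmic deacetylase that acts on tubulin and HSP90, Cdca8 the chromosomal passenger protein borealin and Ncaph a condensin subunit. Hdac6 had 1506, 1496 and 1575 normalized counts in Stat3β TG, against 2042, 1578 and 1835 in WT. For each of the 8 genes WT 1 was the highest of the 6 libraries, as it was for the inducible mean. This comes with the choice of the genes by their likeness to that mean, and no shared function was tested.

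The wider chaperone network differed at about the background rate. Over 9 lists of related genes, each gene counted once, 109 were tested, of which 52 had a higher and 57 a lower mean log2 level in Stat3β TG, with a median log2 fold change of -0.03 against 0.01 over all genes. None passed the adjusted threshold by limma, edgeR or DESeq2 (0 each). The unadjusted limma p was under 0.05 for 5 that were higher and 3 that were lower, 7.34% of those tested against 6.1% of all genes, and the groups did not overlap for 14, or 12.8%, against 10.8% of all genes.

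Relatives of HSP70 held 4 of these 8 genes. Of 11 other HSP70 and HSP110 genes 4 had a higher and 7 a lower mean, with a median log2 fold change of -0.09. Hspa2, an HSP70 known for its role in spermatogenesis, had 832, 1228 and 984 normalized counts in Stat3β TG, against 1459, 1790 and 4839 in WT, without overlap (log2 fold change -1.22, limma unadjusted p = 0.0212, adjusted p = 0.668). Hyou1, an HSP110 relative of the endoplasmic reticulum, had 8507, 7109 and 8369 normalized counts in Stat3β TG, against 6294, 4651 and 6125 in WT, also without overlap (log2 fold change 0.50, limma adjusted p = 0.668). Hspa13, a microsomal HSP70 relative, had 1026, 777 and 1320 normalized counts in Stat3β TG, against 832, 655 and 411 in WT, where WT 1 lay within the Stat3β TG range (limma adjusted p = 0.668). The HSP70 of mitochondria, Hspa9, averaged 7397 ± 1136 normalized counts in Stat3β TG and 9724 ± 2577 in WT (SD, n = 3 each), with overlapping ranges. Among the other HSP90 genes, Hsp90b1 of the endoplasmic reticulum averaged 33356 ± 3354 in Stat3β TG and 27085 ± 6305 in WT, and Trap1 of mitochondria 3831 ± 343 in Stat3β TG and 4031 ± 1086 in WT (SD, n = 3 each), both with overlap.

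J-domain proteins and cochaperones were close to balanced. Of 33 other J-domain genes 20 had a higher and 13 a lower mean, and the median log2 fold change was 0.03. Dnajc11, a J-domain protein of mitochondria, had the smallest p. Dnajc11 had 2257, 2257 and 2533 normalized counts in Stat3β TG, against 2183, 1519 and 1622 in WT, without overlap (log2 fold change 0.42, limma unadjusted p = 0.0439, adjusted p = 0.668). Dnajb2 averaged 207 ± 29.2 in Stat3β TG and 110.5 ± 80.2 in WT, and Dnajb12 1160 ± 162 in Stat3β TG and 1630 ± 474 in WT (SD, n = 3 each), both with overlap. Of 24 HSP70 and HSP90 cochaperones 13 had a higher and 11 a lower mean, and none had an unadjusted limma p under 0.05 (0 genes). Chordc1, an HSP90 cochaperone, averaged 2655 ± 490 normalized counts in Stat3β TG and 1796 ± 892 in WT (SD, n = 3 each). Sugt1, a cochaperone of HSP90, averaged 2065 ± 114 in Stat3β TG and 1688 ± 257 in WT, and Tomm34, which bridges HSP70 and HSP90, 2747 ± 246 in Stat3β TG and 3417 ± 445 in WT (SD, n = 3 each). The groups did not overlap for Sugt1, which was higher in Stat3β TG, or for Tomm34, which was lower.

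**Figure D5:**
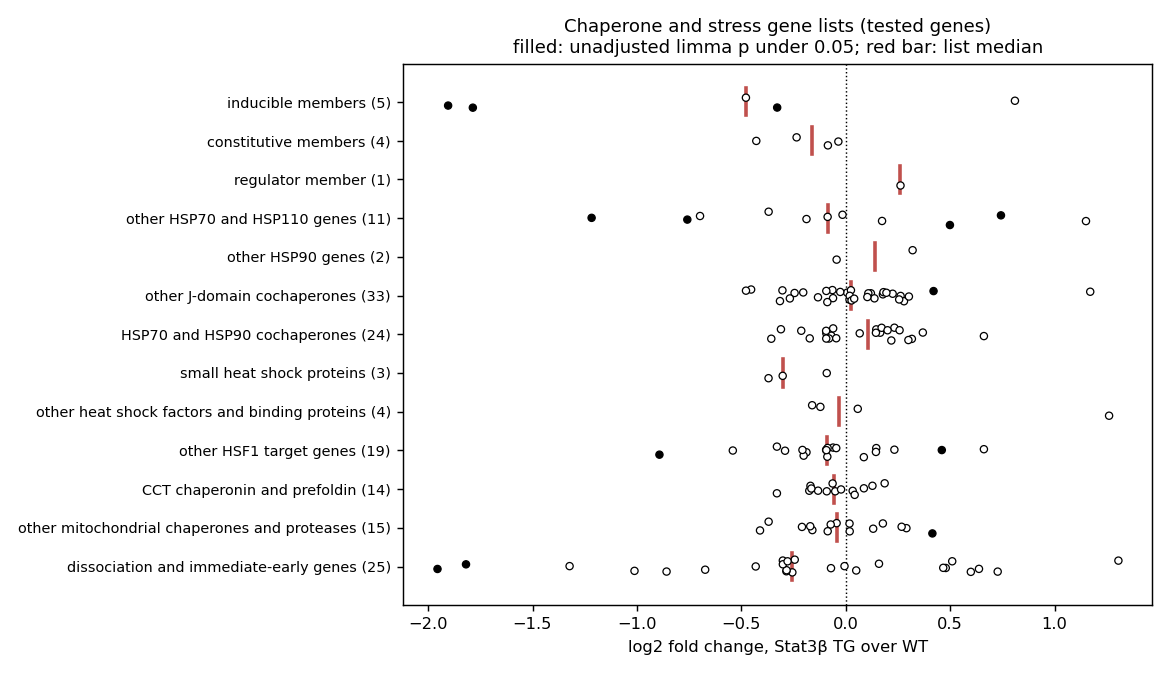
Difference in mean log2 level, Stat3β TG minus WT, for each tested gene of the heat shock members and of 10 further lists, 1 point per gene, filled where the unadjusted limma p is under 0.05, with a bar at the list median. The medians of the larger chaperone lists lie near 0, between -0.09 and 0.11, and Hspa1a and Hspa1b lie at -1.79 and -1.90 at the far left with the immediate-early genes Egr1 and Egr2.

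Other genes that HSF1 is known to induce were mixed as well. Of 19 tested 6 had a higher and 13 a lower mean, with a median log2 fold change of -0.09. Ubb, which encodes polyubiquitin, had 211, 179 and 217 normalized counts in Stat3β TG, against 289.5, 380.4 and 477 in WT, without overlap (log2 fold change -0.89, limma unadjusted p = 0.0124, adjusted p = 0.668). Hmox1, the haem-degrading enzyme, had 1074, 1001 and 1296 normalized counts in Stat3β TG, against 730.3, 816 and 896 in WT, also without overlap but in the other direction (log2 fold change 0.46, limma adjusted p = 0.668). Small heat shock proteins were hardly expressed: 7 of 10 were not tested, among them Hspb1, at 0 to 2.46 normalized counts in Stat3β TG and 0 to 7.04 in WT, where 3 reads equal between 1.69 and 4.22 normalized counts. Hspb6 averaged 403 ± 81.1 in Stat3β TG and 537 ± 181 in WT (SD, n = 3 each), while Hspb9 and Hspb11 lay near the filter, between 6.16 and 20.9 in Stat3β TG and between 5.63 and 19.7 in WT. Of the other heat shock factors and their binding proteins 4 of 7 were tested. Hsf2 averaged 492 ± 104 in Stat3β TG and 536 ± 113 in WT, Hsbp1, which binds and inhibits HSF1, 1849 ± 199 in Stat3β TG and 1775 ± 158 in WT, and its relative Hsbp1l1 16.3 ± 4.06 in Stat3β TG and 6.88 ± 4.09 in WT (SD, n = 3 each).

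Chaperonin and mitochondrial quality control genes differed little. Of the 14 genes of the CCT ring and its prefoldin partner, which fold actin and tubulin, 5 had a higher and 9 a lower mean, with 0 at an unadjusted limma p under 0.05 and a median log2 fold change of -0.06. Tcp1 averaged 9036 ± 694 in Stat3β TG and 11444 ± 1932 in WT, Cct2 13084 ± 952 in Stat3β TG and 14747 ± 1684 in WT, and Vbp1 1978 ± 227 in Stat3β TG and 2225 ± 341 in WT (SD, n = 3 each). Of 15 other mitochondrial chaperones and proteases 7 had a higher and 8 a lower mean. Htra2, a protease of the intermembrane space, had 2085, 1913 and 2200 normalized counts in Stat3β TG, against 1736, 1317 and 1618 in WT, without overlap (log2 fold change 0.41, limma unadjusted p = 0.0325, adjusted p = 0.668). Spg7, a protease of the inner membrane, averaged 2056 ± 89.6 in Stat3β TG and 1727 ± 318 in WT (SD, n = 3 each).

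Heat shock genes can be switched on while cells are dissociated and sorted, together with immediate-early genes, so 25 immediate-early genes were measured beside them. The part of dissociation in the heat shock differences was not tested. Their summed level was 339146, 615356 and 191493 normalized counts in Stat3β TG 1 to 3, against 308743, 488706 and 309134 in WT 1 to 3. The groups overlapped in this sum, with Stat3β TG 2 the highest library and Stat3β TG 3 the lowest. Of the 25 genes 9 had a higher and 16 a lower mean in Stat3β TG, with a median log2 fold change of -0.26. Egr2, a zinc finger transcription factor, had 48.9, 87.4 and 42.1 normalized counts in Stat3β TG, against 244, 180.04 and 249 in WT, without overlap (limma adjusted p = 0.668), and DESeq2 called it lower (adjusted p = 0.00227). Egr1 had 8754, 13407 and 2123 normalized counts in Stat3β TG, against 19425, 30696 and 18341 in WT, without overlap (limma adjusted p = 0.668). These 2 were the only genes of the 25 whose groups did not overlap, both lower in Stat3β TG, where 4.92% of all genes were lower without overlap. Ier5, which is known to bind HSF1, averaged 3161 ± 737 in Stat3β TG and 5373 ± 2795 in WT, and Gadd45b 964 ± 234 in Stat3β TG and 3878 ± 4649 in WT (SD, n = 3 each), with WT 3 far above the rest for both.

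Lists of markers of mature myeloid and other cell types were measured beside these genes. In bulk samples such a list cannot tell other cells from expression by the blasts themselves. Csf1r, for example, is in both the myeloid blast list and the monocyte list. All 12 mature neutrophil markers had a higher mean in Stat3β TG, with a summed level of 388915 to 573474 normalized counts in Stat3β TG and 108992 to 377864 in WT, without overlap, and 7 of 10 monocyte and macrophage markers were higher, summing to between 69382 and 119155 in Stat3β TG and between 53886 and 72285 in WT. WT 1 was the WT library nearest to Stat3β TG in both sums. The 9 T and NK cell markers matched, of 10, summed to between 747 and 1045 in Stat3β TG and between 153 and 1594 in WT, with Cd3e at 0 and Cd8a and Cd8b1 under 1 in every library, and Nkg7 made up most of the sum. All 5 tested had a higher mean log2 level in Stat3β TG, with a median log2 fold change of 1.12. Their groups overlapped, and each but Nkg7 stayed at or under 98 normalized counts. The 9 B lineage markers summed to between 1231 and 2112 in Stat3β TG and between 1255 and 1820 in WT, with Ms4a1, Pax5 and Igll1 under 10 throughout, and Cd79b made up most of the sum. The 10 matched erythroid markers of 11 summed to between 3863 and 4638 in Stat3β TG and between 4778 and 5882 in WT, nearly all of it from Tfrc, the transferrin receptor of dividing cells in general. Their mean log2 level was 4.23 ± 0.67 in Stat3β TG and 4.25 ± 0.62 in WT (SD, n = 3 each), and Klf1, Gata1, Alas2, Hemgn and Car2 all overlapped between the groups. The 10 stromal and endothelial markers summed to between 5819 and 7221 in Stat3β TG and between 7403 and 9241 in WT, mostly from Pecam1 and Pdgfrb, with Cdh5, Kdr and Emcn under 10 in every library. The lower sum in Stat3β TG rested on Pdgfrb, at 2015 ± 127 in Stat3β TG and 3772 ± 1526 in WT (SD, n = 3 each). Of the 4 stromal and endothelial markers tested 3 had a higher mean in Stat3β TG, with a list median log2 fold change of 0.49. The part of any of these cell types, or of such expression within the blasts, in the heat shock differences was not tested.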

How the data were processed

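RNA-seq was measured in 3 Stat3β TG and 3 WT libraries. The authors deposited normalized counts (a signal at or above 0), which are gene counts divided by 1 factor per library; FastQC, STAR and DESeq2 with GRCm38 (mm10) are named, per the submitters' processing notes. No version, gene counter, strand setting or treatment of multi-mapping reads was given in the sources used here. Values were whole multiples of 1 step per library (100% of 146724 within 0.001), so whole reads were recovered; on these edgeR called 0 and DESeq2 17 genes. Of 24454 Entrez IDs 24376 had a symbol in RefSeq GRCm38.p6. Genes with at least 10 normalized counts in at least 3 libraries were tested (12642) as log2(normalized count + 1), a scale that understates the change of low genes. The test was limma 3.58.1 (R 4.3.3; trend, robust, two-sided, Benjamini-Hochberg over all genes, threshold 0.05), with edgeR 4.0.16 and DESeq2 1.42.0 on recovered reads as alternatives. The fits were checked on simulated counts. Libraries were grouped by title, and no pair agreed within sampling noise (chi-square per gene of 62.3 to 212).

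Members and lists were chosen with earlier results of these data known. Named were the 10 members, up to 3 genes of smallest p per chaperone list, 4 of the immediate-early list and the 8 genes most correlated with the inducible mean. Of the genes this rule names, 1 is not reported here. Exon lengths and 50-base windows are from GENCODE M21 (GRCm38).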

Additional observations from a re-analysis of the deposited data

How the results depend on the processing

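Without the replicate block limma called 0 genes and 0 of the 10 heat shock members, and the replicate block left both at 0 and the class difference at -0.54. Deviations from the group means had correlations of 0.141, 0.0995 and -0.107 between same-numbered libraries. Those of differently numbered libraries ran from -0.202 to 0.143. With 3 libraries per group these values cannot settle whether the numbers pair samples. Leaving out 1 library at a time gave 0 to 346 called genes (346 without WT 1, 5 without WT 2), 0 called members and a class difference of -0.74 to -0.21. Without WT 2 and WT 3 limma called 9 genes, 1 of them a member (Hspa1b, log2 fold change -3.53, adjusted p = 0.0043), and the class difference was -1.20; this leaves 1 WT library, assumed to vary like the Stat3β TG libraries. DESeq2 called 17 genes, and limma called 740 with WT 2 as the only WT library, where the class difference was -0.14. It was -0.27 with Hspa1a and Hspa1b summed, -1.19 with Hspa1a, Hspa1b and Dnajb1 alone and 0.20 without Hspa1a and Hspa1b, a choice made after seeing the data, as was the comparison of libraries with Y-linked reads. Over 41 named genes and sums, 538 of 566 values under the alternatives kept their sign and side of the threshold, 3 passed it (Hspa1b as above, Dnajb2 with WT 2 as the only WT library and Egr2 by DESeq2) and 25 turned sign.

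Those 25 reached at most 0.29 in size. Without WT 2 and WT 3 they were Hsph1 (-0.059), Hsp90b1 (-0.041), Trap1 (0.039), Dnajb12 (0.087), Chordc1 (-0.091), Hspb6 (0.27), Hspb9 (0.21), Hsbp1 (-0.068) and Hspa9 (0.075). With WT 2 as the only WT library they were Hspa8 (0.077), Hspd1 (0.23) and Trap1 (0.29). Leaving out 1 library at a time gave -0.15 to 0.086 for Hspa8, -0.25 to 0.0097 for Hspd1, -0.50 to 0.0030 for Hspe1, -0.21 to 0.16 for Trap1, -0.64 to 0.064 for Hspb9, -0.52 to 0.24 for Hspb11, -0.29 to 0.029 for Hsf2 and -0.017 to 0.14 for Hsbp1. The cause was not tested.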
